A study of Homo sapiens with 6 samples.

Results

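AMH, the gene of anti-Müllerian hormone, was followed together with the genes around it on chromosome 19: SF3A2, PLEKHJ1, JSRP1 and OAZ1. These are 5 of the 15598 genes in the deposited count table, and 4 of the 5 had enough reads to be tested. AMH was selected on its fold change between the same 6 libraries, so its own rise is described here without a test. The other 4 genes were taken for their position beside it, to see whether the neighbourhood, and SF3A2 in particular, moved with AMH. MHCC97H, a human hepatocellular carcinoma line of high metastatic capacity, was the 1 cell line used. RNA was sequenced from 3 libraries of cells carrying a control short hairpin RNA (shcontrol) and 3 libraries of cells carrying a hairpin against HNRNPC (shHNRNPC). The labels tell apart 1 knockdown construct and name no other allele or treatment. The design text calls the replicates independent, and does not say whether they were separate cultures, so p-values measure the spread between these libraries.

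Anti-Müllerian hormone is a secreted ligand of the TGF-beta family. Sertoli cells of the fetal testis make it to drive regression of the Müllerian ducts, and granulosa cells of growing ovarian follicles make it later. It signals through its own type II receptor, AMHR2, with type I receptors and SMAD proteins shared with bone morphogenetic proteins. SF3A2, which ends just before AMH starts, encodes a subunit of the SF3a complex of the U2 snRNP, which recognises the branch point during splicing. PLEKHJ1 encodes a protein with a pleckstrin homology domain. JSRP1 encodes a protein of the skeletal muscle junctional sarcoplasmic reticulum. OAZ1 encodes antizyme, which binds ornithine decarboxylase and sends it to the proteasome when polyamines are abundant. The knocked-down gene, HNRNPC, encodes hnRNP C, which sits on runs of uridine in newly made RNA in the nucleus.

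In the positions of the deposited table, which overlap the GENCODE 29 (GRCh38) gene of the same name for all 15211 positioned genes, the 5 genes lie within a short stretch. PLEKHJ1 spans chr19:2233153-2237704 on the minus strand, and SF3A2 spans chr19:2236504-2248679 on the plus strand. Those 2 genes overlap by 1201 bp at their starts. AMH spans chr19:2249311-2252073 on the plus strand and begins 631 bp after the end of SF3A2. JSRP1 spans chr19:2252252-2256417 on the minus strand, so AMH and JSRP1 end towards each other with 178 bp between them. OAZ1 spans chr19:2269520-2273490 on the plus strand, 13102 bp beyond JSRP1. The use of strand in counting is not given in the sources used here, so reads in the PLEKHJ1 and SF3A2 overlap cannot be told apart. The count table gives 1 number per gene and library, so where in AMH its reads lay cannot be seen.

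The stretch before AMH is shown because it lies between SF3A2 and AMH and holds the AMH promoter. The RefSeq table holds the bases before the start of 4 of the 5 genes. For AMH, the 250 bases before the RefSeq start, chr19:2249073-2249322 on the plus strand of GRCh38.p14, have a GC content of 62.8%, against a median of 58% over 35116 promoters. The last bases lie inside the AMH span of the deposited table. Capitals mark, in order, a GATA word read on the opposite strand, a GATA word, a word found in sites of the nuclear receptor NR5A1 and another GATA word.
AMH promoter: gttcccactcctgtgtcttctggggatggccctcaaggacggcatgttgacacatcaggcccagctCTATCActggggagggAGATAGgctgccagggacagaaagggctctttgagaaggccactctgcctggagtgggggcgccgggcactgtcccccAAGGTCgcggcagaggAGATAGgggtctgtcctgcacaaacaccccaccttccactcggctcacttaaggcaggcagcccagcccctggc
The NR5A1 word, AAGGTC, lies 90 to 85 bases before the start, and 9.01% of all promoters of this length hold it on either strand. AGATAG lies 168 to 163 and 74 to 69 bases before the start, and TGATAG lies 184 to 179 bases before it on the opposite strand. AGATAG is present in 5.66% and TGATAG in 5.05% of promoters, and any of the 4 GATA words searched, which begin with A or T and go on with GATAA or GATAG, in 22.3%. The core of the interferon-stimulated response element, searched on both strands, was not found in these 250 bases of AMH, and 3.02% of promoters hold it. TATAAA, which 10.7% of promoters hold, the word CCAAT (32.0%) and the run TTTTT (36.6%) were not found on either strand. These matches are letters in a window, and no readout of binding was made.

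The polyadenylation signals of SF3A2 and AMH are shown because such a signal marks where a transcript is to end. Both stretches are 30 bases near the end of the longest coding GENCODE 29 transcript, with the signal in capitals, and both stop short of the transcript end.
SF3A2 signal: tgccccccgctcATTAAAcagcctccccca
AMH signal: aagcatcgccccAATAAAgaccagcaagca
The signal of SF3A2 was ATTAAA, which begins 42 bases before the transcript end. The signal of AMH was AATAAA, 24 bases before the end. Among 11813 coding transcripts of tested genes, 63.7% held AATAAA in their last 50 bases and 14.9% held ATTAAA without it. PLEKHJ1, JSRP1 and OAZ1 held AATAAA. hnRNP C binds runs of uridine, and the AMH, SF3A2 and JSRP1 transcripts held 0 runs of 5 or more T, as did 11.6% of tested genes. PLEKHJ1 held 6 such runs (2.67 per kb) and OAZ1 held 2 (1.74 per kb), against a median of 1.76 per kb. Introns were not searched.

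Total counts ranged from 15563077 to 18328475 per library. HNRNPC itself had 853 ± 4.76 CPM (read counts scaled to library size by TMM; SD, n = 3) in shcontrol and 62.3 ± 3.80 CPM in shHNRNPC. The log2 fold change was -3.77 (adjusted p = 5.04e-55, edgeR's quasi-likelihood test). Of 11831 tested genes, 61.1% passed an adjusted p of 0.05. Of all tested genes, 29.8% were higher and 31.3% were lower in shHNRNPC. The median log2 fold change was -0.0041. Of the 10 liver carcinoma markers, 7 were in the table and 3 were tested. Their summed level of 1358 to 1383 CPM in shcontrol and 1555 to 1574 CPM in shHNRNPC was carried by the keratins KRT8 and KRT18. The hepatocyte genes ALB and APOA1 had 0 counts in every shcontrol library, and AFP had at most 6 counts in any library.

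AMH was low in control cells and higher in each knockdown library. The shcontrol libraries, named NC_3, NC_3_2 and NC_3_3, held 58, 47 and 54 AMH reads, which is 3.41, 2.97 and 2.91 CPM. The shHNRNPC libraries, named SI_3, SI_3_2 and SI_3_3, held 186, 176 and 172, which is 11.3, 10.04 and 9.73 CPM. The lowest knockdown library stood above the highest control library, which the selection of AMH favours. Groups did not overlap in CPM, in either direction, for 64% of all tested genes. AMH averaged 3.10 ± 0.274 CPM in shcontrol and 10.4 ± 0.841 CPM in shHNRNPC (SD, n = 3), 3.34-fold higher, with a log2 fold change of 1.74 (SE 0.14). It ranked at place 56 of 11831 tested genes by fold change, and 1.87% of tested genes rose at least 2-fold. The log2 fold change of AMH in the authors' deposited table is 1.75. In bulk RNA, more cells that express AMH and more AMH RNA per cell cannot be told apart.

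The AMH transcript is unusual in base composition. Its longest coding transcript, of 1821 bases, has a GC content of 73.1%, above that of 99.7% of tested genes, whose median is 48.4%. When each library was corrected for the relation of its counts to transcript GC content and length, the AMH log2 fold change was 1.39 in place of 1.74. The GC content of SF3A2 is 66.6%, of PLEKHJ1 61.4%, of JSRP1 71.1% and of OAZ1 54.0%, so the correction touches these genes too, and its values are given beside each. Whether that relation arises in the cells or in library preparation was not tested.

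**Figure D1:**
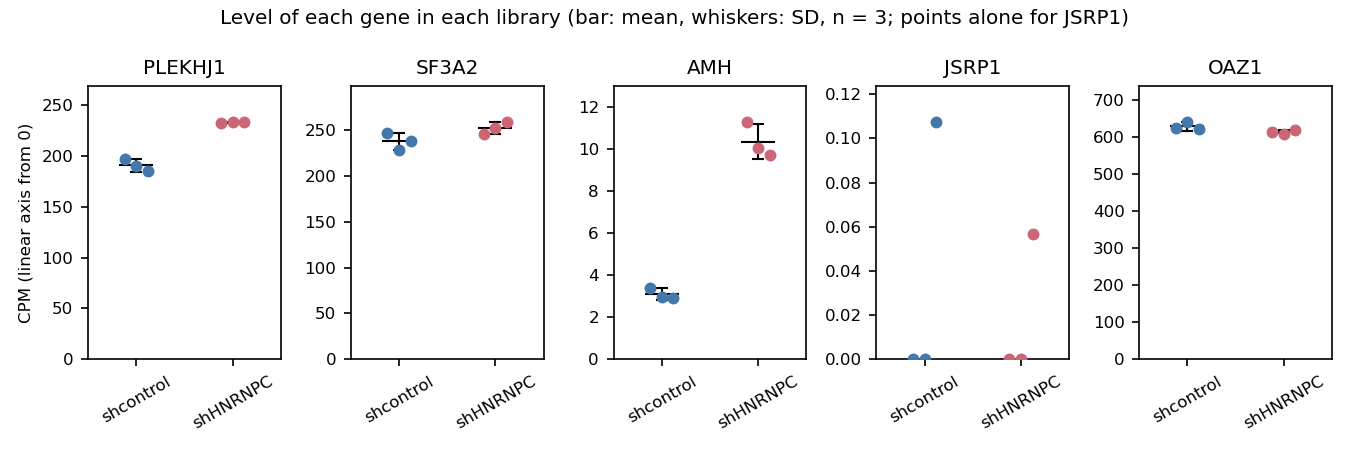
Level in CPM (linear axes from 0, a separate scale for each gene) of the 5 genes in order along the chromosome, with 1 point per library, a bar at the mean and whiskers of 1 SD (n = 3), and points alone for JSRP1. The AMH points lie between 2.91 and 3.41 CPM in shcontrol and between 9.73 and 11.3 CPM in shHNRNPC, while the SF3A2 points of the groups overlap.

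SF3A2, the splicing factor gene directly upstream, did not show a change of that size. SF3A2 had 247, 228 and 238 CPM in the shcontrol libraries and 246, 252 and 259 CPM in the shHNRNPC libraries. The groups overlapped, since the lowest knockdown library lay under the highest control library. SF3A2 averaged 238 ± 9.61 CPM in shcontrol and 252 ± 6.68 CPM in shHNRNPC (SD, n = 3). Its fitted change was 1.06-fold (95% interval 1.02 to 1.10), or 0.09 on the log2 scale (SE 0.029, adjusted p = 0.00866, edgeR's quasi-likelihood test). This call was lost with scaling by library size alone (log2 fold change 0.046, adjusted p = 0.161 in edgeR), without NC_3_2 (adjusted p = 0.109) and without SI_3_3 (adjusted p = 0.0634). The direction turned with the GC content and length correction, to -0.12 (adjusted p = 7.32e-05 in edgeR). In each of these fits the SF3A2 log2 fold change stayed within 0.12 of 0 in either direction.

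Set against SF3A2 in the same library, AMH took a larger share in the knockdown. AMH reads were 1.38%, 1.31% and 1.22% of SF3A2 reads in NC_3, NC_3_2 and NC_3_3. The shares were 4.61%, 3.99% and 3.76% in SI_3, SI_3_2 and SI_3_3. This ratio does not depend on library scaling. It averaged 1.30 ± 0.081% in shcontrol and 4.12 ± 0.440% in shHNRNPC (SD, n = 3), a ratio of means of 3.16, given without a test because AMH was chosen for its rise. Per kb of transcript, SF3A2 stood at 121 ± 4.90 CPM per kb and AMH at 1.70 ± 0.150 CPM per kb in shcontrol. In shHNRNPC the levels per kb were 128 ± 3.40 for SF3A2 and 5.69 ± 0.462 for AMH. SF3A2 was thus 71.2 times as abundant as AMH per kb in shcontrol and 22.6 times in shHNRNPC. How many of the AMH reads came from transcripts begun at SF3A2 was not tested, since the table holds no reads of the 631 bp between the genes.

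**Figure D2:**
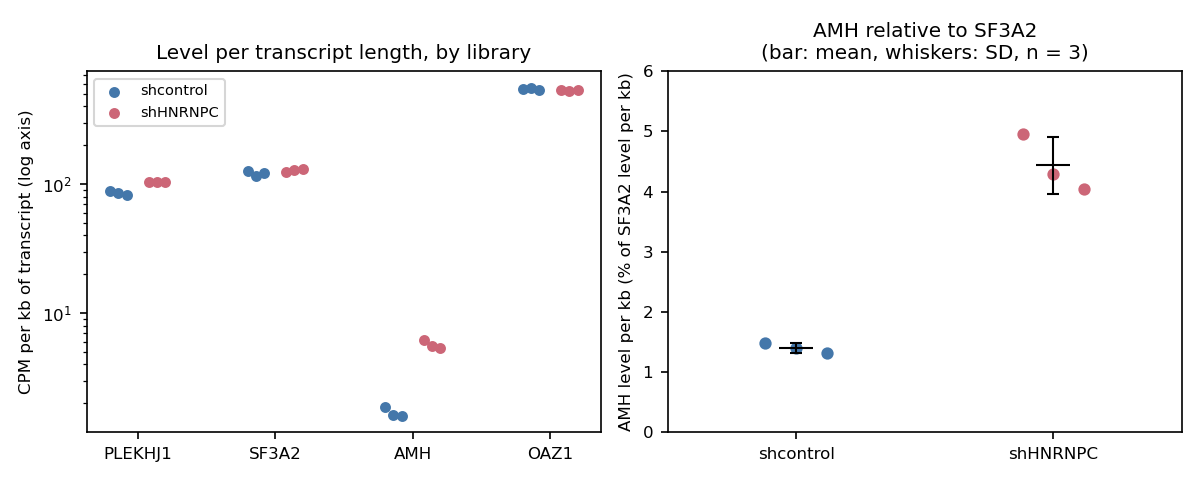
Left, CPM per kb of transcript (log axis) for the 4 tested genes, with 1 point per library. Right, the AMH level as a percentage of the SF3A2 level per kb in each library, with mean and SD (n = 3), at 1.31% to 1.49% in shcontrol and 4.05% to 4.97% in shHNRNPC.

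PLEKHJ1, on the other strand across the start of SF3A2, rose by more than SF3A2 and with little spread. PLEKHJ1 had 198, 190 and 185 CPM in shcontrol, and 233, 233 and 234 CPM in shHNRNPC. All 3 knockdown libraries stood above all 3 control libraries, and 64% of tested genes had groups that do not overlap in either direction. PLEKHJ1 averaged 191 ± 6.20 CPM in shcontrol and 233 ± 0.655 CPM in shHNRNPC (SD, n = 3). The change was 1.22-fold (95% interval 1.18 to 1.27; log2 fold change 0.29, SE 0.029, adjusted p = 4.08e-12, edgeR's quasi-likelihood test). After the GC content and length correction the log2 fold change was 0.11 (adjusted p = 6.58e-04 in edgeR). PLEKHJ1 reads were 80.5 ± 2.99% of SF3A2 reads in shcontrol and 92.6 ± 2.19% in shHNRNPC (SD, n = 3).

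JSRP1, the muscle gene that faces AMH tail to tail, was at the limit of detection. JSRP1 had 0, 0 and 2 reads in shcontrol and 0, 0 and 1 in shHNRNPC. It fell under the filter on low counts and was not tested. A count of 0 allows up to 3 reads, or 0.164 to 0.193 CPM in a shcontrol library and 0.168 to 0.180 CPM in a shHNRNPC library, so no fold is given. Such limits cover counting error only. No rise of JSRP1 reads was detectable at this depth. JSRP1 lies on the strand opposite to AMH, and the use of strand in counting is not given. Its counts therefore cannot show whether transcription ran on past AMH, which was not tested.

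OAZ1, the antizyme gene, was the most abundant of the 5 per length, at 547 ± 9.91 CPM per kb in shcontrol and 534 ± 3.97 CPM per kb in shHNRNPC. OAZ1 had 623, 641 and 620 CPM in shcontrol and 614, 609 and 618 CPM in shHNRNPC. The knockdown libraries lay just under the control libraries, as 64% of tested genes had groups that do not overlap. OAZ1 averaged 628 ± 11.4 and 613 ± 4.56 CPM (SD, n = 3). The change of 0.977-fold (95% interval 0.949 to 1.01; log2 fold change -0.03, SE 0.021) did not pass the test (adjusted p = 0.179, edgeR's quasi-likelihood test). OAZ1 was called lower with scaling by library size alone (log2 fold change -0.073, adjusted p = 0.0029 in edgeR) and after the GC content and length correction (-0.25, adjusted p = 5.81e-17 in edgeR).

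By level per kb, OAZ1 was highest in both groups, followed by SF3A2, PLEKHJ1, AMH and JSRP1. SF3A2 lay between 116 and 132 CPM per kb over the 6 libraries and PLEKHJ1 between 82.3 and 104, so these neighbours in the order did not overlap in any library. AMH, at 1.60 to 6.22 CPM per kb, was below every value of PLEKHJ1.

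The neighbourhood beyond these genes was read next, over 250 kb either side of AMH. The window held 16 other genes in the table, of which 14 were tested. Of those 14, 8 were higher, 1 was lower and 5 did not pass the test, with a median log2 fold change of 0.12. That is 64.3% called, against 61.1% of all tested genes, of which 29.8% were higher and 31.3% lower. The 3 tested neighbours described above are among them. Within 100 kb, 5 of 7 tested genes were higher and 0 were lower. On chromosome 19 as a whole, 39.3% of 863 tested genes were higher and 13.7% were lower, with a median of 0.11. After the GC content and length correction the 250 kb window held 4 higher and 5 lower genes. The 7 genes within 100 kb then held 2 higher and 3 lower, and the chromosome 211 and 242. Of all tested genes, 26.1% were higher and 29.8% were lower after that correction. With scaling by library size alone the window held 4 higher and 2 lower genes, against 2988 and 4160 of 11831 tested genes.

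MKNK2, which encodes a kinase that phosphorylates the translation factor eIF4E, had the largest change in the window after AMH. MKNK2 rose 1.62-fold, from 138 ± 1.80 to 224 ± 7.19 CPM (SD, n = 3; log2 fold change 0.69, adjusted p = 4.43e-24, edgeR), and stood at 0.58 after the correction. BTBD2 rose from 92.0 ± 1.34 to 116 ± 4.44 CPM (log2 fold change 0.33, adjusted p = 2.81e-10 in edgeR), and stood at 0.15 after the correction. LMNB2, which encodes lamin B2 of the nuclear lamina, was the gene that fell, from 1216 ± 17.7 to 1044 ± 3.26 CPM (log2 fold change -0.22, adjusted p = 6.42e-14 in edgeR). DOT1L, the histone H3 lysine methyltransferase gene that ends 574 bp before PLEKHJ1, rose with a log2 fold change of 0.14 (adjusted p = 1.15e-04 in edgeR).

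The remaining called genes of the window moved little. LSM7, a subunit of the LSM ring of RNA processing, was called higher at 0.10 on the log2 scale (adjusted p = 0.00949 in edgeR), but turned to -0.19 after the correction. GADD45B, a stress-induced gene, was called higher at 0.13 (adjusted p = 0.00555 in edgeR) and turned to -0.078 after the correction. SPPL2B, an intramembrane protease gene, was called higher at 0.16 (adjusted p = 0.0139 in edgeR) and stood at 0.028 after it. MOB3A (0.03), AP3D1 (0.02), TIMM13 (0.02) and TMPRSS9 (0.28) did not pass the test. IZUMO4, with 4 to 6 reads in each library, was not tested. No tested gene of the window had a log2 fold change near the 1.74 of AMH.

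**Figure D3:**
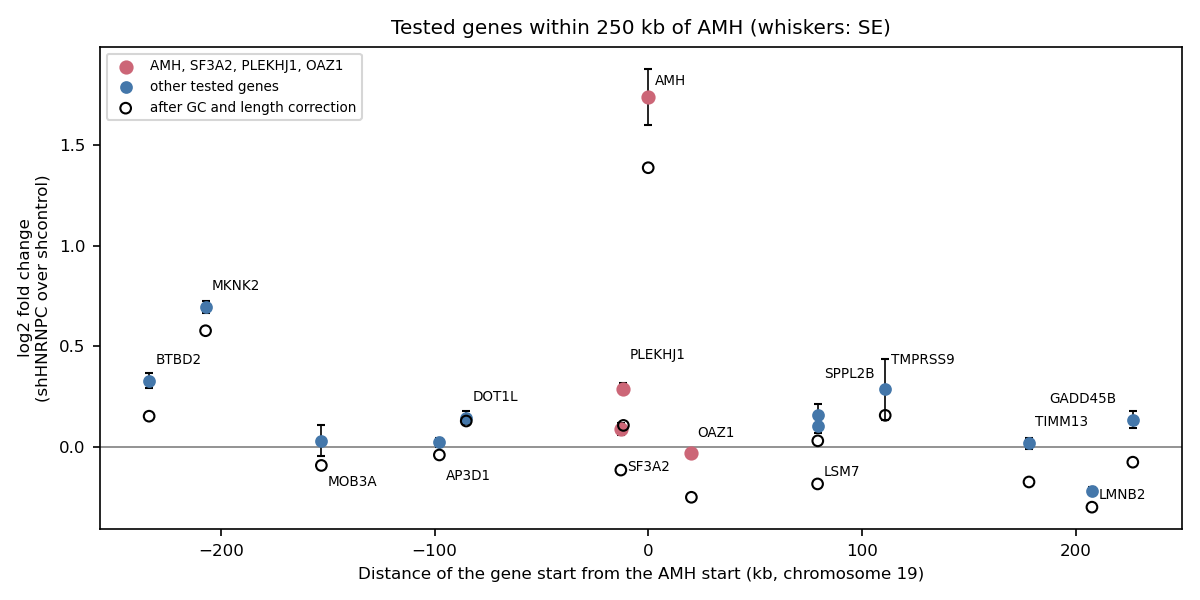
log2 fold change (shHNRNPC over shcontrol) of the tested genes against the distance of their start from the AMH start in kb, with whiskers of 1 SE, and open circles after the GC content and length correction. AMH stands at 1.74 and the next gene, MKNK2, at 0.69, while SF3A2, LSM7, GADD45B and 3 genes that did not pass the test turn below 0 after the correction.

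To set AMH beside other genes in its position, pairs of tested genes were taken that lie on 1 strand with the downstream gene beginning at most 1 kb after the end of the upstream gene. There were 203 such pairs without SF3A2 and AMH. Among them are pairs of the mitochondrial genome, whose downstream genes were mostly called lower. Some genes, such as MT-ND3 and MT-ND4, stand in several pairs. The downstream gene was higher in 96 pairs (47.3%, against 29.8% of all tested genes) and lower in 29 (14.3%, against 31.3%), with a median log2 fold change of 0.09. After the GC content and length correction the downstream gene was higher in 48 pairs (23.6%, against 26.1% of all tested genes after that correction) and lower in 68 (33.5%, against 29.8%). With scaling by library size alone it was higher in 71 pairs and lower in 41, against 2988 higher and 4160 lower of 11831 tested genes. A downstream rise of at least 2-fold, as AMH has, was seen in 11 pairs (5.42%, against 1.87% of all tested genes), and in 6 pairs (2.96%, against 1.8% of all tested genes) after the correction.

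SF3A2 stood 33.8 times above AMH per kb over the 6 libraries. In 34 of the pairs the upstream gene was likewise at least 10 times the downstream gene per kb, a subset chosen after seeing the data. Of those 34 downstream genes, 16 (47.1%) were higher, against 29.8% of all tested genes. Rises of at least 2-fold numbered 6 (17.6%, against 1.87%), and 3 genes (8.82%, against 31.3%) were lower. After the correction 9 of the 34 were higher (26.5%, against 26.1% of all tested genes). Rises of at least 2-fold then numbered 4 (11.8%, against 1.8%), and 1 gene (2.94%, against 29.8%) was lower. Low genes reach a given fold more often. Of the 34, 29 were under 5 CPM per kb, and 6 of these (20.7%) rose at least 2-fold. The share was 3.65% among the 4905 tested genes under that level. Called higher were 13 of the 29 (44.8%), against 16.1% of those 4905. The shares under that level were taken without the correction only. Some low genes can have passed the filter on low counts only through the group where they were higher.

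The pairs with the largest downstream folds were mostly of low downstream genes. The filter on low counts passes a gene that is high enough in either group. Genes very low in shcontrol can thus have entered the test through shHNRNPC alone, which favours large rises among them. No adjusted p is therefore given below for downstream genes under 1 CPM in shcontrol, whose folds are descriptions. CCDC154, 854 bp after the chloride transporter gene CLCN7, rose 6.19-fold, from 0.255 ± 0.132 to 1.60 ± 0.388 CPM (SD, n = 3), while CLCN7 rose 1.18-fold. CILP2, 666 bp after YJEFN3, rose 4.95-fold from 0.305 ± 0.121 to 1.57 ± 0.230 CPM, and YJEFN3 rose 1.80-fold. DHX58, which encodes the RNA sensor LGP2, an interferon-stimulated gene, lies 374 bp after KAT2A. DHX58 rose 3.80-fold, from 13.8 ± 1.72 to 52.1 ± 2.80 CPM (adjusted p = 7.83e-27 in edgeR), beside 1.23-fold for KAT2A. CNIH2, 697 bp after the RAB1B GTPase gene, rose 3.07-fold from 0.288 ± 0.077 to 0.918 ± 0.316 CPM, while RAB1B, at 0.973-fold, did not pass the test. AOC3, 479 bp after AOC2, rose 2.31-fold from 0.514 ± 0.216 to 1.18 ± 0.236 CPM, beside 1.41-fold for AOC2.

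**Figure D4:**
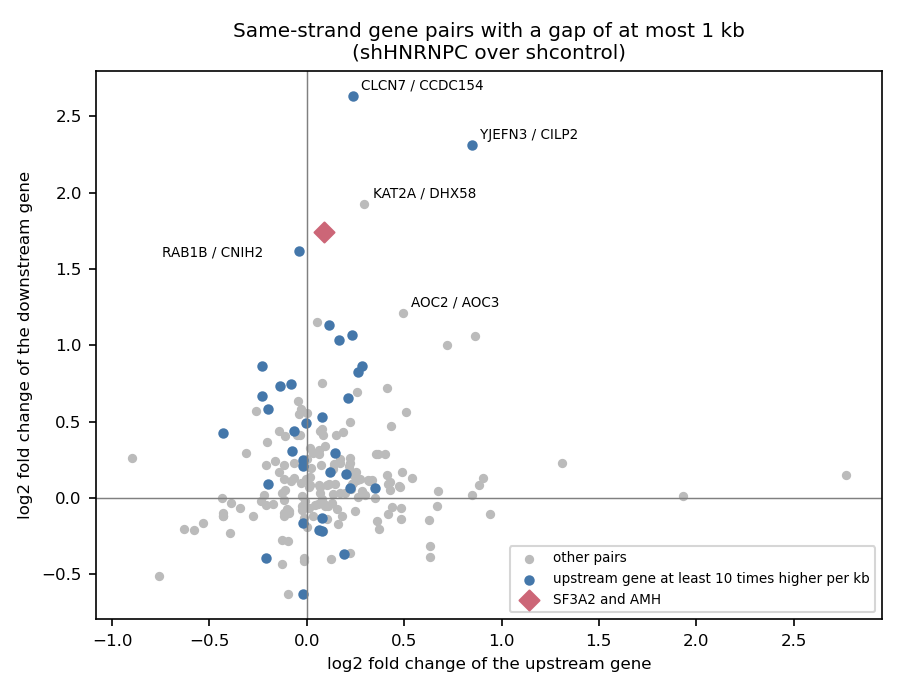
Each point is a pair of tested genes on 1 strand with at most 1 kb between them, with the log2 fold change of the upstream gene on the x axis and of the downstream gene on the y axis, blue where the upstream gene is at least 10 times the downstream gene per kb. The diamond is SF3A2 and AMH, at 0.09 and 1.74, and 11 other pairs have a called downstream rise of at least 2-fold, or 6 after the GC content and length correction.

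The genes through which AMH is received were read from a list of 17 receptors, SMADs and ID genes. AMHR2, the receptor that defines an AMH target cell, had 2, 2 and 0 reads in shcontrol and 1, 0 and 0 in shHNRNPC, and was not tested. BMPR1B, ID3 and ID4 were also under the filter, which left 13 tested. Of these, 5 were higher and 4 were lower, with a median log2 fold change of 0.07, a count near the background of 61.1% called, 29.8% higher and 31.3% lower among all tested genes. ACVR2A, a type II activin receptor, rose from 8.22 ± 0.574 to 15.6 ± 2.89 CPM (SD, n = 3; log2 fold change 0.93, adjusted p = 8.62e-10, edgeR). ACVR1, the type I receptor ALK2, rose from 32.3 ± 0.785 to 45.6 ± 0.619 CPM (0.50, adjusted p = 1.84e-10 in edgeR). SMAD6, an inhibitory SMAD, rose from 44.9 ± 2.68 to 59.7 ± 4.07 CPM (0.41, adjusted p = 7.47e-09 in edgeR).

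SMAD5, a signal carrier below the type I receptors, fell from 56.0 ± 0.322 to 36.9 ± 2.78 CPM (log2 fold change -0.60, adjusted p = 3.76e-13, edgeR). The other members that fell were the receptor BMPR2 (-0.45), the shared SMAD4 (-0.44) and SMAD9 (-0.44). The target gene ID1 was called higher at 0.13 but turned to -0.090 after the GC content and length correction. After that correction 5 were higher and 1 was lower, against 26.1% and 29.8% of all tested genes. ID1 lost its call (adjusted p = 0.0769 in edgeR). The receptor gene BMPR1A, at -0.12 and not called before (adjusted p = 0.213), was then called higher (0.255, adjusted p = 0.0086, both edgeR). SMAD5 kept its call at -0.17, while SMAD4 (-0.11, adjusted p = 0.259), SMAD9 (-0.27, adjusted p = 0.0832) and BMPR2 (0.030, adjusted p = 0.772, all edgeR) lost theirs. The receptor gene ACVR2B was called higher before (0.45, adjusted p = 0.00141) and after the correction (0.64, adjusted p = 7.86e-06, both edgeR). Before the correction, receptors and SMADs were thus called in both directions. After it the called receptor genes, BMPR1A, ACVR1 (0.54), ACVR2A (1.30) and ACVR2B, were all higher. The called SMADs, SMAD6 (0.30) and SMAD5, still differed in direction.

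Transcription factors described at the AMH promoter, and the convertases that cleave the AMH precursor, made a list of 15, of which 11 were in the table and 8 were tested. Of these, 2 were higher and 2 were lower, with a median log2 fold change of -0.026, so the list was called no more often than the 61.1% of all tested genes. GATA6 rose from 12.4 ± 0.555 to 16.1 ± 0.474 CPM (SD, n = 3; 0.38, adjusted p = 3.53e-04, edgeR). PCSK5, a convertase gene, rose from 4.80 ± 1.23 to 7.40 ± 0.891 CPM (0.61, adjusted p = 5.24e-04 in edgeR). The convertase genes PCSK7 (-0.09, adjusted p = 0.0128) and FURIN (-0.08, adjusted p = 0.0313, both edgeR) were called lower by small amounts, and neither was called by DESeq2. SOX9, the Sertoli cell regulator, stood at 1.73 ± 0.429 and 1.13 ± 0.190 CPM (adjusted p = 0.066 in edgeR). GATA4 stood at 3.30 ± 0.278 and 2.57 ± 0.195 CPM (adjusted p = 0.111 in edgeR). Neither passed the test, and after the GC content and length correction both were called lower, for 2 higher and 4 lower in all. Among all tested genes 26.1% were then higher and 29.8% lower.

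The listed markers of the cells that normally make AMH were low. Of 9 Sertoli and granulosa markers, 6 were in the table and 1, SOX9, was tested. Their summed level was 1.83 to 2.97 CPM in the shcontrol libraries and 1.198 to 1.70 CPM in the shHNRNPC libraries. SOX9 carried most of that sum. GATA4 and WT1 were counted above among the regulators and not here. WT1 stood at 11.1 ± 1.36 CPM in shcontrol and 11.3 ± 1.24 CPM in shHNRNPC (SD, n = 3) and was not called (adjusted p = 0.826 in edgeR). Of 7 skeletal muscle markers, 5 were in the table and 0 were tested, with sums of 1.02 to 1.27 and 0.548 to 0.679 CPM. Leukocyte markers (3 of 4 in the table) summed to 0 to 0.127 and 0.122 to 0.226 CPM. Endothelial markers (4 of 4) summed to 1.18 to 2.10 and 0.791 to 1.19 CPM. Fibroblast markers (4 of 4, of which COL1A1 and PDGFRB were tested and not called) summed to 18.6 to 20.9 and 19.4 to 20.9 CPM.

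SF3A2 was compared with its partners in the SF3a and SF3b complexes. All 10 subunits were tested, of which 7 were higher and 1 was lower, with a median log2 fold change of 0.11. Among all tested genes 61.1% were called, 29.8% higher and 31.3% lower, with a median of -0.0041. SF3B1, the largest SF3b subunit and a gene often mutated in cancers, fell from 238 ± 8.27 to 159 ± 5.38 CPM (SD, n = 3; -0.58, adjusted p = 4.86e-21, edgeR). SF3B3 rose from 445 ± 3.86 to 541 ± 7.36 CPM (0.28, adjusted p = 4.26e-15 in edgeR). SF3B2 (0.16) and SF3A3 (0.15) rose by smaller amounts. After the GC content and length correction 4 subunits were higher and 4 were lower, SF3A2 among the lower. Among all tested genes 26.1% were then higher and 29.8% lower. SF3B1 then stood at -0.28, and SF3B2 lost its call (0.039, adjusted p = 0.130 in edgeR).

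The polyamine genes, among which OAZ1 acts, held calls in both directions. All 15 were tested, of which 7 were higher and 2 were lower, with a median log2 fold change of 0.08. The 9 called are close to the background share of 61.1% of all tested genes. ODC1, ornithine decarboxylase, the enzyme that antizyme binds, rose from 370 ± 4.06 to 468 ± 12.3 CPM (SD, n = 3; 0.34, adjusted p = 6.44e-17, edgeR). SAT1, which acetylates spermidine and spermine, rose from 16.2 ± 0.692 to 25.9 ± 0.906 CPM (0.67, adjusted p = 2.01e-10 in edgeR). AMD1, which makes the aminopropyl donor of spermidine and spermine synthesis, fell from 70.8 ± 1.79 to 43.6 ± 0.725 CPM (-0.70, adjusted p = 3.59e-17 in edgeR). ATP13A3, a polyamine transporter gene, fell from 178 ± 1.52 to 111 ± 4.83 CPM (-0.68, adjusted p = 2.41e-22 in edgeR). The split was 7 higher and 4 lower with scaling by library size alone, against 2988 and 4160 of 11831 tested genes. After the GC content and length correction it was 6 and 6, against 26.1% higher and 29.8% lower of all tested genes. ODC1 then stood at 0.22, AMD1 at -0.39 and ATP13A3 at -0.25.

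Of 10 genes listed for the muscle triad, where the JSRP1 protein sits, 8 were in the table and 4 were tested. RYR1, CASQ1, STAC3 and SRL were under the filter. JPH2, a junctophilin, fell from 110.0 ± 1.10 to 87.6 ± 2.99 CPM (SD, n = 3; -0.33), and its relative JPH1 fell by 0.18 on the log2 scale. The calcium pump gene ATP2A1 rose from 5.47 ± 1.13 to 8.53 ± 1.70 CPM (0.63), and the calcium channel subunit gene CACNB1 rose by 0.48 on the log2 scale. Those 4 genes passed edgeR's test, as did 61.1% of all tested genes.

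**Figure D5:**
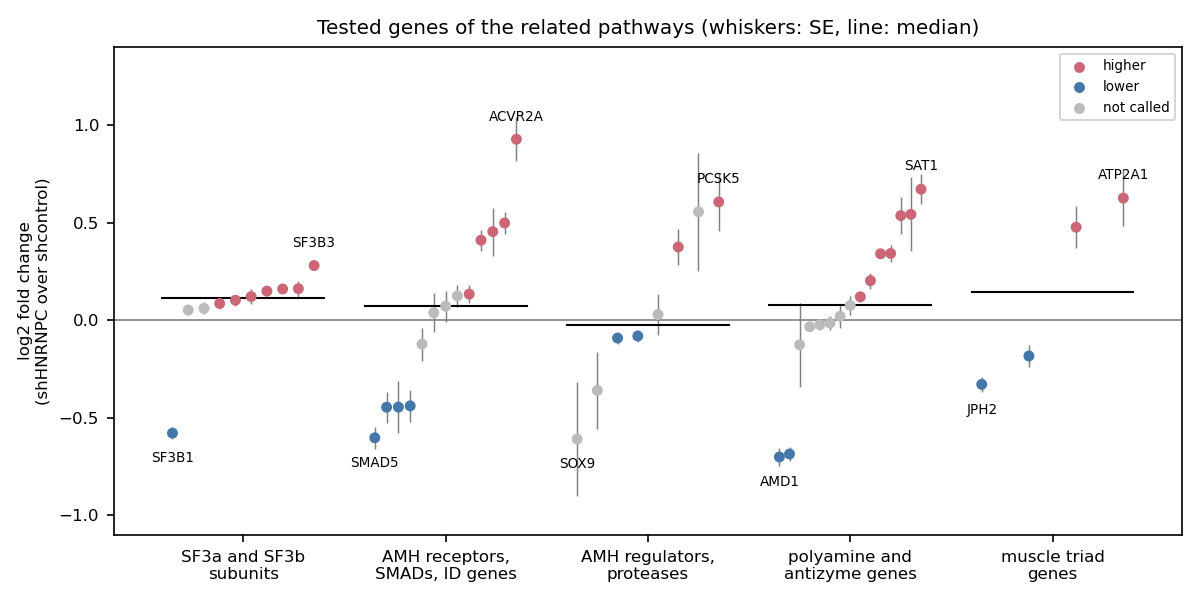
log2 fold change (shHNRNPC over shcontrol, whiskers of 1 SE) of every tested gene of the 5 lists, coloured by call, with a line at each list's median. The medians are 0.11, 0.07, -0.026, 0.08 and 0.15 from left to right, and each list holds called genes on both sides of 0, with the splits after the GC content and length correction as given in the text.

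Lastly, the genes whose profile over the 6 libraries lay nearest to that of AMH were listed among 11340 genes with a mean of at least 1 CPM. Likeness was the Euclidean distance between centred log2(CPM + 0.5) values. The nearest were GBP4 at a distance of 0.241, LGALS9 at 0.255, IFITM1 at 0.272, OAS2 at 0.283 and CMPK2 at 0.291. Each is on another chromosome. GBP4, a guanylate-binding protein gene, went from 6.70 ± 0.165 to 22.4 ± 1.07 CPM (SD, n = 3), and LGALS9, the galectin-9 gene, from 0.854 ± 0.091 to 3.37 ± 0.636 CPM. IFITM1 went from 58.3 ± 2.15 to 193 ± 6.94 CPM, OAS2 from 259 ± 10.3 to 765 ± 10.1 CPM and CMPK2 from 19.6 ± 1.60 to 58.4 ± 1.79 CPM. With 2 groups of 3 libraries, a small distance mostly reflects a like fold change.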

How the data were processed

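RNA of 6 MHCC97H libraries was extracted with Trizol and prepared with the NEBNext Ultra kit, per the labels' protocols. STAR, HTSeq 0.6.0 and DESeq2 are the tools listed per the submitters' processing notes. Build, annotation and strand setting: not given in the sources used here. Deposited counts are whole, unnormalised reads per gene, and the deposited log2 fold changes and p-values are the authors' own. Columns were assigned to groups by their names NC and SI. Another 24 per-library columns were not used.

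Counts were tested in R 4.3.3 with edgeR 4.0.16 (filterByExpr, TMM, glmQLFit and glmQLFTest, Benjamini-Hochberg over 11831 genes, threshold 0.05). DESeq2 1.42.0 was an alternative. The longest coding GENCODE 29 transcript gave each gene's GC content and length (11813 of 11831 tested genes), and the correction took as offsets a smooth fit, per library, of each gene's deviation from its mean log2 CPM on both (mgcv 1.9.3). Over genes, chi-square averaged 1.56 to 2.5 for libraries of a group and 29.5 to 33.6 across groups. Each library was counted once. These values do not show whether the libraries were separate cultures. Counts were also simulated for this comparison (11759 genes), with 200 genes changed in random directions and a common dispersion for all genes. On these the fit called 74.6% of genes changed 1.25-fold, 91% at 1.5-fold and 98.5% at 2-fold, and falsely called 8. In the data a far larger share of genes was called, so these figures need not hold there.

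The genes and lists were chosen with earlier results of these data known. Genes named were HNRNPC, the 5 genes, tested genes within 250 kb, up to 4 called genes a list by smallest adjusted p, the 5 downstream genes with the highest fold in close pairs, and the 5 nearest profiles. AMHR2, ACVR2B, BMPR1A, BMPR2, SMAD4, SMAD9, ID1, SOX9, GATA4 and WT1 were named after their values were seen. So were SF3B4, SF3B5, AZIN1, SAT2, PAOX, the mitochondrial genes of the pairs and the untested or marker genes.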

Additional observations from a re-analysis of the deposited data

How the results depend on the processing

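No paired analysis was possible because the column names do not carry the replicate numbers of the sample titles. With the GC content and length correction the AMH log2 fold change moved to 1.39, SF3A2 reversed to -0.117, OAZ1 was called at -0.253, and higher downstream genes in close pairs numbered 48. BMPR2 (0.030), BMPR1A (0.255), ID1 (-0.090), MOB3A (-0.094), AP3D1 (-0.042), LSM7 (-0.186), TIMM13 (-0.176) and GADD45B (-0.078) reversed too. With library size alone SF3A2 was not called (0.046), OAZ1 was called (-0.073), and MOB3A (-0.0100), AP3D1 (-0.019) and TIMM13 (-0.023) reversed. Against a 1.2-fold change, an alternative chosen after seeing the data, neither SF3A2 (0.086, adjusted p = 1.0) nor PLEKHJ1 (0.289, adjusted p = 0.205) was called by edgeR's glmTreat. The window of 100 kb held 5 called genes, a gap of 5 kb gave 379 higher downstream genes, pairs with the 10 times higher upstream gene, also chosen after seeing the data, gave 16, and DESeq2 called 2 of the AMH regulators and proteases.

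Leaving out each library in turn, the log2 fold change ranged from 1.67 to 1.81 for AMH, 0.057 to 0.110 for SF3A2, 0.266 to 0.310 for PLEKHJ1 and -0.043 to -0.019 for OAZ1. The AMH to SF3A2 ratio ranged from 2.97 to 3.30 times. Called genes ranged from 6733 to 6984 over all genes, 7 to 9 in the window and 2 to 4 among AMH regulators and proteases (2 without SI_3), and higher downstream genes from 82 to 90. MOB3A ranged from -0.033 to 0.124, reversing without NC_3_2 and without SI_3_2 (-0.029), and TIMM13 from -0.0062 (without NC_3_3) to 0.038. The cause of these changes was not tested. JSRP1 gave no value under any alternative, being too low to test, and AMH rests on 47 to 186 reads per library.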
